A study of Oryctolagus cuniculus with 6 samples.

Results

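Hypoxia sensing and its transcriptional output were followed in rabbit retina through 10 genes, chosen by name: the oxygen-regulated alpha subunits HIF1A and EPAS1, the prolyl hydroxylases EGLN1, EGLN2 and EGLN3, the ubiquitin ligase component VHL, and the non-glycolytic HIF targets ADM, BNIP3, NDRG1 and ANKRD37. All 10 were present among the 28788 genes of the deposited tables, and all 10 passed the filter on low counts. The study compared 3 retina samples labelled normal with 3 labelled PVR, for proliferative vitreoretinopathy, a scarring of the retina in which contractile membranes form after injury or detachment. Adult rabbits were used. In the PVR rabbits the eye was opened through the sclera near the corneal margin, a small volume of vitreous was aspirated, and the same volume of platelet-rich plasma was put in its place. Strain, sex, the interval between surgery and collection, and any sham procedure in the normal rabbits are not given in the sources used here, nor is it stated that each sample came from a different animal. The p-values therefore measure the spread between these samples. The samples are pieces of whole tissue, so fewer cells of a type and less RNA per cell cannot be told apart.

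In well-oxygenated cells the EGLN enzymes use molecular oxygen to hydroxylate prolines of the HIF alpha subunits, and VHL then binds the hydroxylated subunit and directs it to the proteasome. When oxygen falls, the alpha subunits persist, pair with ARNT in the nucleus and raise transcription of genes for glucose uptake, glycolysis, vessel growth and mitochondrial turnover. This control acts on the protein, so mRNA levels of HIF1A or EPAS1 do not measure HIF activity, whereas the mRNA of the target genes is the step that HIF regulates. The retina consumes oxygen at a high rate, chiefly in photoreceptors, and HIF-driven VEGFA is best known there for the growth of abnormal vessels.

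None of the 10 genes passed an adjusted p of 0.05 between PVR and normal retina in edgeR's quasi-likelihood test, where 1.7% of the 18697 genes tested did. Before adjustment, edgeR gave 5 of the 10 a p under 0.05, and all of these were lower in PVR, against 9.94% of all genes in that direction and 11.3% in the other. The 5 were NDRG1, BNIP3, EPAS1, ANKRD37 and ADM, with log2 fold changes from -0.32 to -0.68. They are the 4 genes chosen as HIF targets and 1 of the alpha subunits. The 10 genes were chosen with earlier results of these data known, which limits the comparison with all genes. The median log2 fold change of the 10 was -0.24, compared with -0.01 over all genes tested. With DESeq2, the tool named in the study's methods, 3 of the 10 passed (BNIP3, EPAS1 and NDRG1), all lower, against 3.33% of all genes lower in PVR and 8.75% in either direction. In no test did any of the 10 pass both an adjusted p of 0.05 and a 2-fold change, as 1.01% of all genes did in edgeR.

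Each library held between 31904593 and 43035080 counted reads. Rod markers were abundant in every sample (summed FPKM from 11573 to 18532 over all 7 markers searched), so the tissue carried the transcripts of retina. FPKM is the count divided by the length of the gene model and by the sequencing depth. Normal replicate 2 stood apart in lens transcripts, with a summed FPKM of 35107 over 9 lens markers, whereas the other normal samples had 13.2 and 16.2 and the PVR samples 283 to 331. The normal samples also differed in myelin transcripts, with replicate 3 highest. Values without normal replicate 2 or 3 are given beside several of the genes.

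**Figure D1:**
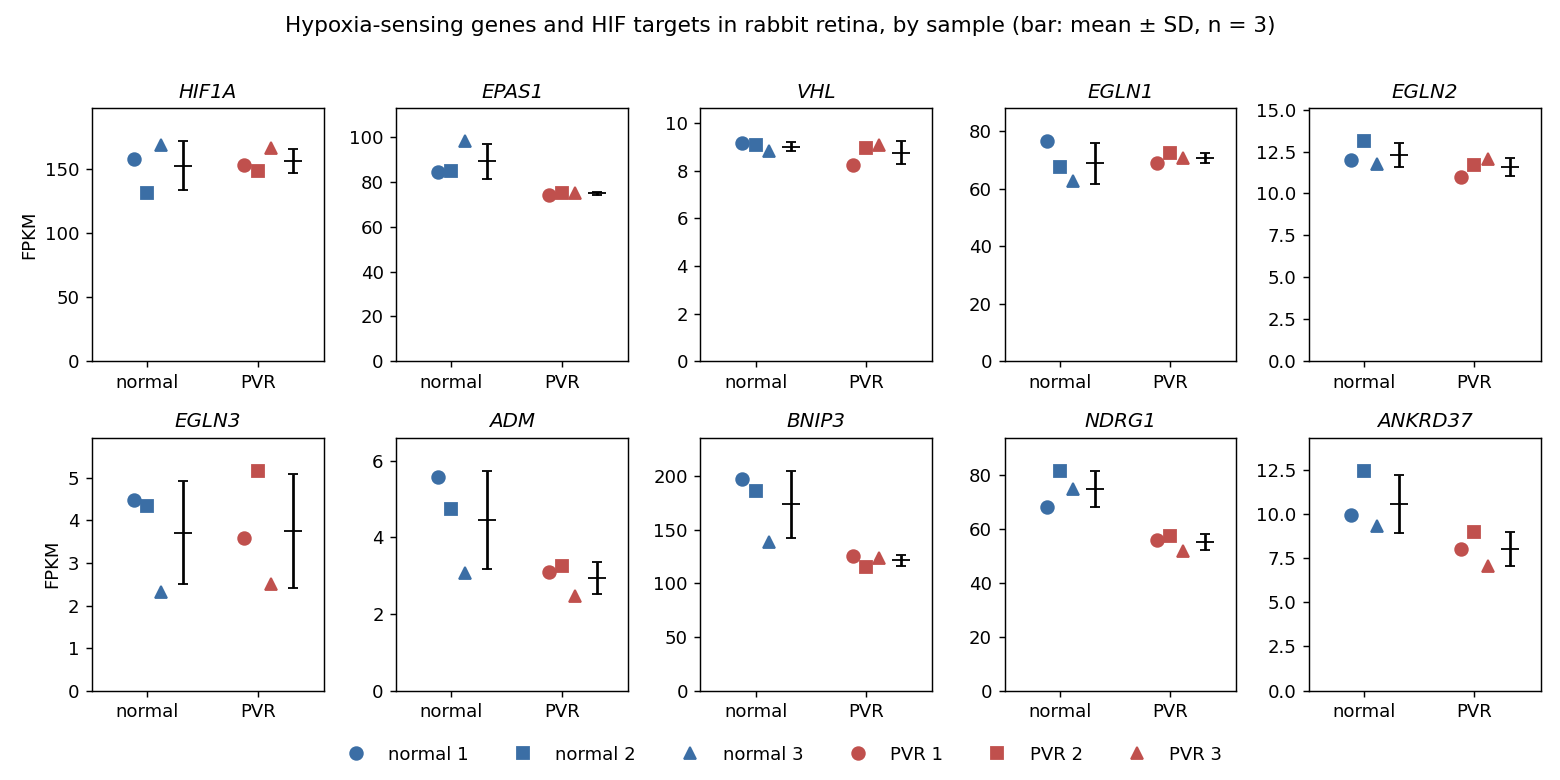
FPKM of each of the 10 genes (vertical axis, linear, from 0, a different scale in each panel) in the 3 normal (blue) and 3 PVR (red) retina samples, with symbols for the replicate number and bars for the mean ± SD. The PVR samples of EPAS1, BNIP3, NDRG1 and ANKRD37 all lie below the normal samples, and those of the other 6 genes overlap them.

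Compared per length, the 10 genes spanned a wide range of levels in normal retina. BNIP3 and HIF1A were the most abundant, with mean FPKM of 174 and 153, and their ranges overlapped. EPAS1 followed with 89.3, above NDRG1 with 74.9 and EGLN1 with 68.9, and the last 2 of these overlapped. EGLN2, ANKRD37 and VHL lay between 9.02 and 12.3, with EGLN2 overlapping ANKRD37 and the lowest ANKRD37 sample (9.33) just above the highest VHL sample (9.16). ADM and EGLN3 were the least abundant, with 4.45 and 3.71, and overlapped each other. In PVR the order at the top was different. There, HIF1A (149 to 167) lay above BNIP3 (116 to 125) without overlap, and EGLN1 (68.9 to 72.6) lay above NDRG1 (51.7 to 57.4) without overlap.

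HIF1A, the widely expressed alpha subunit, had FPKM values of 158, 132 and 169 in normal retina and 153, 149 and 167 in PVR retina. The groups overlapped throughout, and the lowest value of all was that of normal replicate 2. The log2 fold change was -0.03 (standard error 0.11, adjusted p = 0.876 from edgeR), with a 95% interval from -0.29 to 0.22. A change in HIF1A mRNA beyond a fall to 0.818-fold or a rise to 1.17-fold thus lay outside the interval. The sign of its small difference was positive when the libraries were scaled by total counts (0.03), so HIF1A has no direction here.

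EPAS1 encodes HIF-2 alpha, the alpha subunit known from endothelium, glia and the control of erythropoietin. Its FPKM was 84.7, 85.0 and 98.3 in normal retina and 74.4, 75.1 and 75.4 in PVR retina. All PVR samples lay below all normal samples, and the PVR samples were close together. The mean was 89.3 ± 7.75 (SD, n = 3) in normal and 75.0 ± 0.519 (SD, n = 3) in PVR retina. The fitted difference was -0.32 on the log2 scale (standard error 0.09), a level of 0.80-fold, with an adjusted p of 0.107 from edgeR and 0.0197 from DESeq2. Groups that did not overlap, with PVR lower, were found for EPAS1, BNIP3, NDRG1 and ANKRD37 on edgeR's normalized scale, that is 4 of 10 genes, and for 14.6% of all genes tested. None of the 10 had the reverse pattern, which 13.4% of all genes had.

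Taking both alpha subunits from the same library removes depth and normalization from the comparison. The ratio of EPAS1 to HIF1A FPKM was 0.537, 0.645 and 0.581 in normal retina and 0.485, 0.505 and 0.451 in PVR retina. Every PVR sample had less EPAS1 per HIF1A than every normal sample. On the log2 scale the difference was -0.29, with p = 0.1 in a two-sided exact permutation test, the smallest p that 3 samples against 3 can give. The difference was between -0.22 and -0.35 when single samples were left out, the smallest being without normal replicate 2.

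**Figure D2:**
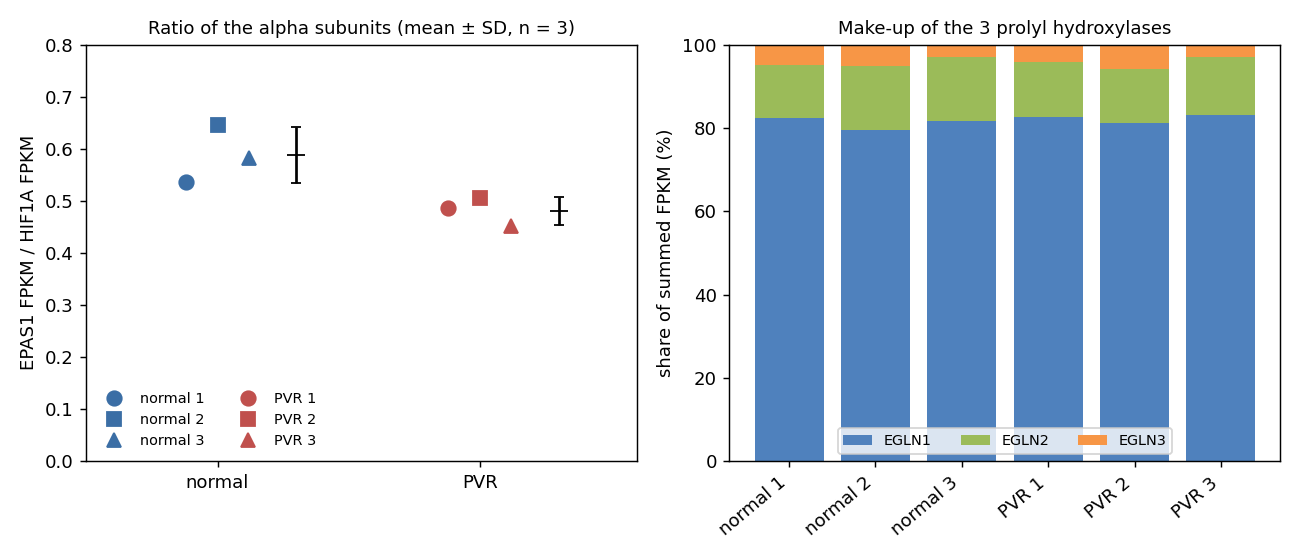
Left, the ratio of EPAS1 to HIF1A FPKM (linear axis from 0) in each normal (blue) and PVR (red) sample, with the mean ± SD; the PVR ratios (0.451 to 0.505) lie below the normal ones (0.537 to 0.645). Right, the share of EGLN1, EGLN2 and EGLN3 in their summed FPKM (percent) in each sample; EGLN1 takes from 79.4% to 83.0% in every library.

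The prolyl hydroxylases, the oxygen sensors themselves, differed little between the groups. EGLN1, the main enzyme acting on HIF1A in most cells, had FPKM values of 76.5, 67.5 and 62.6 in normal and 68.9, 72.6 and 70.9 in PVR retina, so the PVR samples fell inside the range of the normal ones. Its log2 fold change was -0.03 (standard error 0.09, adjusted p = 0.869 from edgeR), with a 95% interval from -0.25 to 0.19, and it was 0.04 when total counts were used as the scale. EGLN2 had 12.02, 13.11 and 11.75 in normal and 11.004, 11.72 and 12.03 in PVR retina, which overlapped (log2 fold change -0.16, 95% interval -0.41 to 0.09).

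EGLN3 is the hydroxylase that is itself strongly induced by HIF. It had 4.47, 4.35 and 2.32 FPKM in normal and 3.58, 5.17 and 2.50 in PVR retina. The samples of replicate 3 were the lowest in both groups. The spread of EGLN3 was the widest of the 10 genes, with a coefficient of variation of 32.6% in normal and 35.8% in PVR retina. Its 95% interval was wide, from -0.85 to 0.71 on the log2 scale. Any change between a fall to 0.555-fold and a rise to 1.64-fold thus lay within the interval. Without PVR replicate 3 the fitted log2 fold change was 0.14, without PVR replicate 2 it was -0.36, and it was 0.01 when total counts were the scale.

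EGLN1 made up most of the hydroxylase mRNA per length in every retina. Its share of the summed FPKM of the 3 enzymes was 81.1% ± 1.49 (SD, n = 3) in normal and 82.2% ± 0.974 (SD, n = 3) in PVR retina, and the groups overlapped (difference 1.09 percentage points, p = 0.4, two-sided exact permutation test). EGLN2 took 14.6% in normal and 13.5% in PVR retina, and EGLN3 took 4.32% and 4.33%.

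VHL, the subunit that recognizes hydroxylated HIF alpha, had FPKM values of 9.16, 9.08 and 8.81 in normal and 8.22, 8.97 and 9.10 in PVR retina. PVR replicate 1 was the lowest, and the other PVR samples lay among the normal ones. The log2 fold change was -0.11 (standard error 0.11, adjusted p = 0.599 from edgeR), with a 95% interval from -0.38 to 0.16.

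NDRG1 had the smallest p of the 10. It encodes a cytoplasmic stress-response protein that is strongly induced by hypoxia, is abundant in myelinating cells, and is mutated in a demyelinating neuropathy. Its FPKM was 68.2, 81.6 and 75.0 in normal retina and 56.1, 57.4 and 51.7 in PVR retina. The lowest normal sample was well above the highest PVR sample. The means were 74.9 ± 6.69 (SD, n = 3) and 55.1 ± 2.98 (SD, n = 3). The log2 fold change was -0.52 (standard error 0.10, unadjusted p = 0.000888, adjusted p = 0.0514 from edgeR), a level of 0.699-fold. The adjusted p missed the threshold narrowly, was 0.0459 in edgeR with no filter on low counts, and was 0.000352 with DESeq2. In edgeR it was between 0.0618 and 0.258 with single samples left out, and 0.101 with the replicate number as a block. NDRG1 passed in 4 of the 18 other settings.

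Because NDRG1 belongs to myelinating cells as well as to the hypoxia response, the oligodendrocyte markers are given beside it. Of 12 such markers, all found in the files, all 12 had a lower mean in PVR. Their summed FPKM was 90.2, 213 and 457 in normal retina and 54.8 to 58.7 in PVR retina, and OLIG1 and OLIG2 had no count in at least 1 sample. Normal replicate 3 had the highest myelin sum and normal replicate 2 the highest NDRG1. Among the normal samples, replicate 1 was the lowest in both. Without normal replicate 3 the log2 fold change of NDRG1 was -0.53, and without normal replicate 2, the sample with lens transcripts, it was -0.43. The part of myelin in the NDRG1 difference was not tested. The other members of the family were chosen for comparison after these results were known and were given no test. NDRG2, an astrocyte and Müller glia gene, had a mean FPKM of 32.9 in normal and 28.6 in PVR retina with overlapping samples. NDRG3 had 138 to 155 in normal and 130 to 135 in PVR retina, so that its groups, like those of NDRG1, did not overlap. NDRG4, a neuronal member, had means of 82.6 and 85.1 with overlap.

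The genes whose profile over the 6 samples was nearest to that of NDRG1 were EVA1A, NREP and TOX2. They lay at distances of 0.10, 0.16 and 0.16 in centred log2 CPM among 9514 genes with a symbol and a mean log2 CPM of at least 3. EVA1A, for example, had FPKM values of 4.84, 5.73 and 5.09 in normal retina and 3.94, 3.83 and 3.39 in PVR retina.

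BNIP3 encodes a receptor on the outer mitochondrial membrane that marks mitochondria for removal by autophagy in hypoxia. It had FPKM values of 197, 186 and 138 in normal retina and 125, 116 and 124 in PVR retina. The PVR samples were close together and below all normal samples, but normal replicate 3 lay much nearer to them than to the other normal samples. The means were 174 ± 31.1 (SD, n = 3) and 122 ± 5.23 (SD, n = 3). The log2 fold change was -0.59 (standard error 0.15, adjusted p = 0.0905 from edgeR and 0.00319 from DESeq2), a level of 0.665-fold. Without normal replicate 3 the log2 fold change was -0.73, with an adjusted p of 0.0108 from edgeR, and in the other edgeR tests with a sample left out the adjusted p was between 0.105 and 0.301. In DESeq2 BNIP3 lost its call without normal replicate 2 (adjusted p = 0.0611).

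BNIP3L, the paralog with the same role in mitochondrial clearance, belonged to the list of other targets. It had FPKM values of 106, 96.3 and 84.6 in normal and 73.9, 68.9 and 74.1 in PVR retina, again with the PVR samples below all normal ones. Its log2 fold change was -0.47 (adjusted p = 0.0721 from edgeR and 0.00453 from DESeq2). The ratio of BNIP3 to BNIP3L FPKM was 1.81 ± 0.155 (SD, n = 3) in normal and 1.68 ± 0.0122 (SD, n = 3) in PVR retina, and the PVR ratios (1.67 to 1.69) lay within the range of the normal ones (1.63 to 1.93).

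ANKRD37, a small ankyrin-repeat protein whose gene is a direct HIF target, had FPKM values of 9.93, 12.4 and 9.33 in normal and 8.003, 8.98 and 7.03 in PVR retina. The PVR samples were all lower, with PVR replicate 2 close to normal replicate 3. The log2 fold change was -0.48 (standard error 0.18, adjusted p = 0.189 from edgeR and 0.12 from DESeq2). It was -0.32 without normal replicate 2, which had the highest value. Without normal replicate 3 it was -0.57 in DESeq2 and passed there, with an adjusted p of 0.0494.

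ADM encodes adrenomedullin, a vasodilating peptide released by endothelium, glia and pigment epithelium. It was measured at low depth, with 331, 294 and 187 counts from normal retina and 151, 160 and 161 in PVR retina. In FPKM these were 5.57, 4.72 and 3.06, against 3.11, 3.24 and 2.45. Normal replicates 1 and 2 lay above all PVR samples, whereas normal replicate 3 lay within the PVR range. ADM had the largest fitted decrease of the 10 in edgeR, with a log2 fold change of -0.68, but also a standard error of 0.27 (adjusted p = 0.209 from edgeR and 0.135 from DESeq2). Leaving out normal replicate 3 moved it to -0.89, and leaving out normal replicate 1 to -0.48. In DESeq2, ADM passed without normal replicate 3 (adjusted p = 0.00468). The receptor subunits CALCRL and RAMP2, looked up after these results were known and not tested, were near the limit of what the libraries hold, with 40 to 127 and 8 to 51 counts per sample.

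EPAS1 and ADM are both known from vessels. Of 12 endothelial markers, all found, 9 had a lower and 3 a higher mean in PVR. Their summed FPKM was 95.9 to 100.02 in normal and 109 to 113 in PVR retina, and CDH5, EMCN and ERG had no count in at least 1 sample. Müller glia markers summed to 1097 to 1281 in normal and 1456 to 1566 in PVR retina, with 5 of 8 higher on average. Rod markers summed to 14781 to 18532 and 11573 to 15454, with all 7 lower on average. Pigment epithelium markers summed to 104 to 224 in normal and 55.3 to 67.1 in PVR retina, with 6 of 7 lower, and PMEL had no count in at least 1 sample. Astrocyte markers summed to 47.8 to 141 and 187 to 210, with 2 of 4 higher and PAX2 at 0 in at least 1 sample. Macrophage and microglia markers summed to 15.3 to 36.2 and 42.8 to 58.5, with all 9 of those found higher. Pericyte markers overlapped, at 5.26 to 12.6 and 5.18 to 13.7, with 5 of 8 lower and KCNJ8 at 0 in at least 1 sample. The part of these shifts in the values of the 10 genes was not tested.

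**Figure D3:**
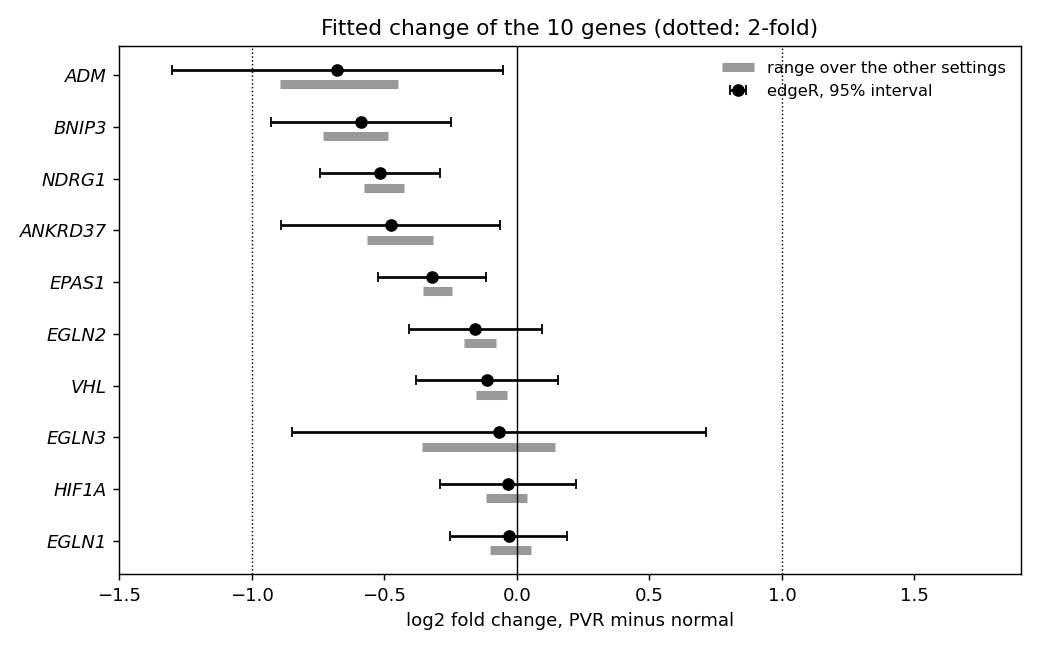
Log2 fold change of each gene, PVR minus normal (horizontal axis), from edgeR with its 95% interval (black), and the range over 18 other settings (grey), with dotted lines at a 2-fold change. The intervals of ADM, BNIP3, NDRG1, ANKRD37 and EPAS1 lie below 0, and those of EGLN2, VHL, EGLN3, HIF1A and EGLN1 span it.

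Set side by side, the 4 genes chosen as targets had log2 fold changes of -0.68, -0.59, -0.52 and -0.48. Their 95% intervals all lay below 0 without adjustment for the number of genes. HIF1A, VHL and the 3 hydroxylases had values between -0.16 and -0.03, with intervals that included 0. Of these, EGLN3 (-0.07) is itself induced by HIF. Its interval, from -0.85 to 0.71, also held the values of the 4 chosen targets, so these samples do not separate it from them. EPAS1, at -0.32, lay between the 4 chosen targets and the other 5 genes. All 10 fitted values were below 0, as were 51.1% of those of all genes, but HIF1A, EGLN1 and EGLN3 were above 0 when total counts were the scale.

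The other genes of the pathway were described from lists of oxygen-sensing and HIF machinery, of further non-glycolytic targets and of glycolytic targets. Of the 17 machinery genes, all of them tested, none passed an adjusted p of 0.05 in edgeR. At an unadjusted p under 0.05, edgeR gave 3, all lower (RBX1, SIAH2 and P4HTM), against 9.94% of all genes. At an adjusted p of 0.05, DESeq2 called 2 lower, RBX1 and SIAH2, against 3.33% of all genes. Without normal replicate 2 both lost that call, with adjusted p of 0.109 and 0.0856 in DESeq2. Their median log2 fold change was -0.06. RBX1, the RING subunit of the VHL ligase and the most abundant of the list, had 140, 139 and 131 FPKM in normal and 112, 99.8 and 117 in PVR retina (log2 fold change -0.39, adjusted p = 0.0846 from edgeR). ELOB, another subunit of the VHL ligase, had overlapping groups with means of 77.0 and 69.9 FPKM. CITED2, a HIF-induced competitor for the coactivators of HIF, had means of 50.4 and 50.6 FPKM.

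Of the 34 further non-glycolytic targets, 33 were found and 31 were tested. In edgeR 3 were lower and none was higher at an adjusted p of 0.05, against 0.615% of all genes lower. Before adjustment, edgeR gave 12 lower and 3 higher with a p under 0.05, against 9.94% and 11.3% of all genes, so the share of higher genes was near that background. The median log2 fold change was -0.11. TFRC, the transferrin receptor that brings iron into cells, had 74.0, 58.8 and 58.9 FPKM in normal and 33.8, 31.8 and 35.9 in PVR retina, a fall by 0.99 on the log2 scale (adjusted p = 0.0157 from edgeR). SLC16A3, a lactate exporter of hypoxic cells, had 24.9, 23.2 and 19.0 against 12.5, 8.98 and 12.1, a fall by 1.07 (adjusted p = 0.0359 from edgeR). It was the only one of the 31 past the 2-fold threshold as well.

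VEGFA, the vessel growth factor and the best known retinal HIF target, had 78.8, 77.3 and 66.1 FPKM in normal and 52.0, 53.2 and 48.2 in PVR retina. All PVR samples were lower, by 0.61 on the log2 scale (adjusted p = 0.0394 from edgeR). Of the other abundant genes of the list, FAM162A, a mitochondrial protein induced by HIF, had means of 85.9 and 64.6 FPKM without overlap (log2 fold change -0.48, adjusted p = 0.12 from edgeR). VEGFA, TFRC and SLC16A3 did not all stay past the threshold when samples were left out. None of the 31 passed without PVR replicate 1 or without PVR replicate 2, where 22 and 113 of all genes did. Only TFRC passed without normal replicate 1 or without normal replicate 2, where 98 and 76 of all genes did. Without normal replicate 3, 9 passed, 8 of them lower, as did 557 of all genes. TFRC and SLC16A3 passed without PVR replicate 3, where 650 of all genes did.

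Of the 19 glycolytic targets, 18 were found and tested, and 17 of the 18 had a fitted value below 0, against 51.1% of all genes, with a median log2 fold change of -0.39. At an unadjusted p under 0.05, edgeR gave 14, all lower, against 9.94% of all genes, and 1 of them also passed the adjusted threshold, against 0.615%. This was SLC2A1, the main glucose transporter of the retina, with 326, 326 and 292 FPKM in normal and 229, 235 and 232 in PVR retina (log2 fold change -0.51, adjusted p = 0.0466 from edgeR). It passed in 8 of the 18 other settings, with an adjusted p of up to 0.271, in edgeR without PVR replicate 1. Without normal replicate 2 its adjusted p was 0.131 in edgeR. DESeq2 called 12 of the 18 genes, all lower, against 3.33% of all genes. GAPDH, ALDOC and ENO1, the most abundant of the list, differed by -0.38, -0.37 and -0.37 on the log2 scale, with adjusted p from 0.0678 to 0.284 in edgeR. LDHA, named for its values, had 18187 and 16526 counts in normal replicates 1 and 2 but 334 in normal replicate 3 and 166 to 281 in the PVR samples, so its fitted change of -5.66 rested on 2 libraries. Whether this row counts all LDHA transcripts in every sample was not tested, and LDHA is 1 of the 14 genes above.

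**Figure D4:**
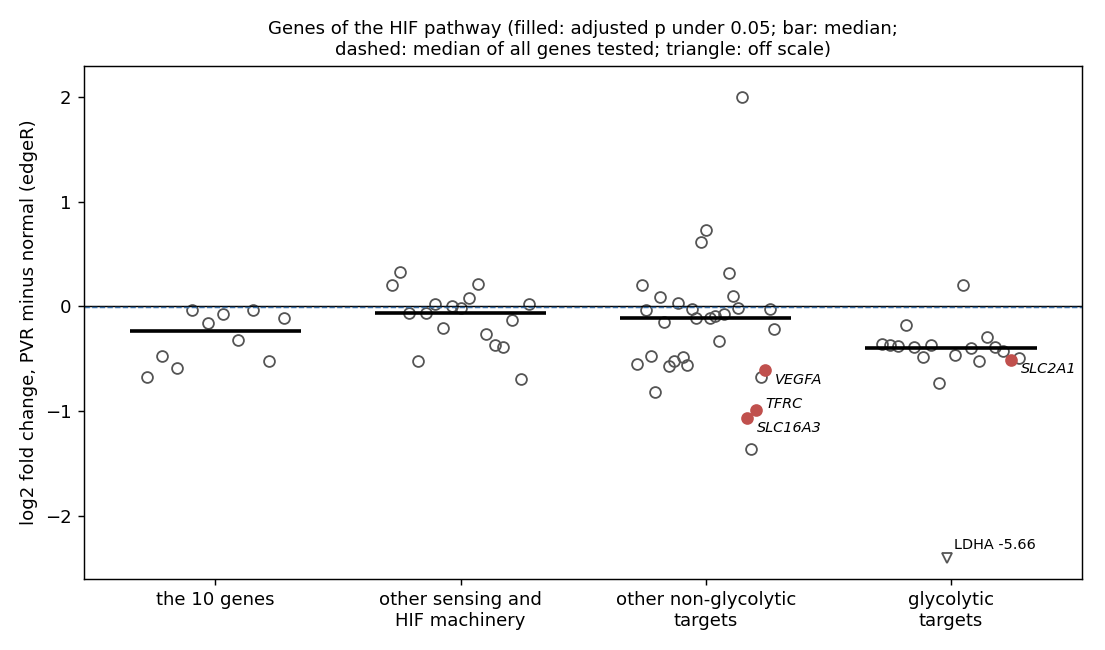
Log2 fold change, PVR minus normal (vertical axis, edgeR), of each tested gene in the 4 lists, with filled points for an adjusted p under 0.05, black bars for the list medians (-0.24, -0.06, -0.11 and -0.39 from left to right) and a dashed line for the median of all genes tested (-0.01). The filled points are VEGFA, TFRC, SLC16A3 and SLC2A1, all below 0, and LDHA (-5.66) is drawn at the lower edge because it is off the scale.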

How the data were processed

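RNA from 3 normal and 3 PVR retina samples was sequenced. According to the study's methods, reads were aligned to OryCun2.0 with HISAT2 2.1.0 and assigned to genes with htseq-count 0.11.2. The labels also name fastp. The strand setting is not given in the sources used here. The authors deposited raw counts and FPKM values per gene. The ratio of count to FPKM gave 1 length per gene, so both tables hold the same reads. Sequences and genome positions of the genes are not used here.

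Counts were tested with edgeR 4.0.16 in R 4.3.3 (default filter, TMM factors, quasi-likelihood test, condition as the single term), with Benjamini-Hochberg adjustment over 18697 genes. FPKM values are not TMM-scaled, so fitted fold changes differ slightly from ratios of mean FPKM. The 95% intervals use the t distribution with edgeR's 7.46 degrees of freedom. The study's thresholds were kept (adjusted p of 0.05, log2 fold change of 1). The methods of the study name DESeq2 1.22.2, and DESeq2 1.42.0 was an alternative here, as were limma 3.58.1 (voom, and log2(FPKM + 1) and log2(FPKM + 0.1)), RLE, upper-quartile and total-count scaling, other filters, the replicate number as a block and single samples left out. Tests were checked on simulated counts. Ratios within a library were compared with exact permutation tests in SciPy 1.17.1. Samples of one group differed by more than counting noise (chi-square per degree of freedom from 20.9 to 198).

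The 10 genes and the lists were chosen with earlier results of these data known. All 10 are named. From the other lists, genes with an adjusted p under 0.05 and the 3 with the highest mean FPKM are named, with BNIP3L and others compared directly or named for their values. For the gene with the smallest p, the 3 nearest genes in centred log2 CPM are given. KDM4B and SLC2A3 were not matched and RAMP3 is not analysed here. EPO and RAB20 were not tested, being under the filter.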

Additional observations from a re-analysis of the deposited data

How the results depend on the processing

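DESeq2 called 3 of the 10 genes, 2 machinery genes and 12 other targets (9 of them lower), in place of 0, 0 and 3. In all it called 1755 genes (8.75% of those it gave an adjusted p) in place of 318 (1.7%). With limma-voom, 215 genes passed in all. With no filter on low counts, edgeR called 1 of the 10 (NDRG1), 0 machinery genes and 3 other targets, with 375 genes in all. With RLE factors it called 0, 0 and 3, with 321 genes in all. With single samples left out of the edgeR test, 0 to 1 of the 10, 0 to 1 of the machinery genes, 0 to 9 of the other targets and 22 to 650 of all genes passed. DESeq2 without normal replicate 2 called 2 of the 10 genes, 0 machinery genes and 7 other targets (5 lower), with 1188 genes in all. DESeq2 without normal replicate 3 called 5, 3 and 14 (11 lower), with 2402 genes in all. These tests and the scaling by total counts were chosen after seeing the data. The log2 fold changes of EPAS1, VHL, EGLN2, ADM, BNIP3, NDRG1 and ANKRD37 were below 0 in all 18 other settings. Signs turned on the log2(FPKM + 1), log2(FPKM + 0.1) and total-count scales, where HIF1A had 0.0386, 0.0388 and 0.0326, EGLN1 had 0.044, 0.0446 and 0.0398, and EGLN3 had 0.0083, 0.0114 and 0.012. They also turned in DESeq2 without normal replicate 3 for HIF1A (0.0342) and without normal replicate 2 for EGLN3 (0.0787). With single samples left out, HIF1A ranged from -0.11 to 0.0339, EGLN1 from -0.10 to 0.0534 and EGLN3 from -0.36 to 0.14. Of the glycolytic targets, 1 passed in edgeR, 12 in DESeq2, 0 with the replicate block and 0 to 5 with single samples left out. The causes were not tested.

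Whether same-numbered normal and PVR samples share an origin is not stated in the sample titles or the paper. Their deviations from the group means correlated at -0.05, 0.04 and 0.01 across 10637 genes, and samples did not all correlate best with their own number. With 3 samples in each group, such correlations cannot settle it. With a replicate block, 0 of the 10 genes and 1 of the other targets (TFRC) passed in edgeR, with 92 genes in all. The differences in the EPAS1 to HIF1A ratio and the EGLN1 share had p = 0.25 in a paired exact test. That is the smallest p that 3 pairs can give in a two-sided test. Of the 10 genes ADM had the fewest counts, 151 to 331 per sample.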
